A study of Homo sapiens with 4 samples.

Results

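The 10 genes described here encode the beta-thymosins TMSB4X and TMSB10 and 8 other proteins that bind actin monomers: the profilins PFN1 and PFN2, the actin-depolymerising proteins CFL1, CFL2 and DSTN, the cyclase-associated protein CAP1, and the twinfilins TWF1 and TWF2. They were taken by name after gene identifiers were mapped to current symbols, and all 10 were among the 11650 genes with a value. The set was drawn up around TMSB4X, which was selected on its FPKM difference between resistant and parental cells in these same libraries, and the others were chosen by what their proteins do. The values of TMSB4X in that comparison are therefore a description and carry no test of their own. The other members were also chosen with earlier results of these data known, so nothing rests on their p-values either. Each of the 10 passed a minimum mean of 1 FPKM over the 4 libraries. For TMSB4X the parental mean alone was 1.11 FPKM, just above that minimum.

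RNA was sequenced from the established cell line 92.1, which derives from a melanoma of the uvea, the pigmented layer of the eye. The resistant group (Res) has 2 libraries from a resistant derivative of the line, and the parental group (Ctrl) has 2 libraries from the parental cells. The labels do not say to what the cells are resistant, whether the derivative is a clone, or whether replicate libraries represent separate cultures. The p-values therefore cover the spread between the sequenced libraries alone, and that spread may be technical. The cell line label differs from sample to sample while all 4 titles name 92.1, and the titles were followed. Summed FPKM (fragments scaled to transcript length and library size) was 292736 and 293481 in the Res libraries and 282602 and 283387 in the Ctrl libraries, and depth is unknown. Across 10271 genes the log2 values correlated at 0.945 between the Res libraries and at 0.971 between the Ctrl libraries. Res replicate 1 correlated with the Ctrl libraries at 0.946 and 0.952, as closely as with its own replicate, and Res replicate 2 at 0.926 and 0.925, so Res replicate 2 stood farthest from the other 3. Without it the log2 fold change was 2.85 for TMSB4X and lay between -0.12 and 1.06 for the 9 other members. The pigment cell markers PMEL, MLANA, TYR, TYRP1, SOX10 and MITF each stood above 9 FPKM in every library. PMEL, MLANA and TYR overlapped between groups, and TYRP1 was higher in both Res libraries. SOX10 was lower there (54.9 and 54.3 FPKM in Res, 91.8 and 73.3 FPKM in Ctrl). MITF was lower too, unevenly (9.64 and 31.8 FPKM in Res, 35.3 and 37.4 FPKM in Ctrl). DCT, another of these markers, stood at 0.486 and 0.517 FPKM in Res libraries and at 4.88 and 5.46 FPKM in Ctrl libraries.

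Actin exists in cells as free monomers and as filaments, and monomer-binding proteins set how much of the free pool can be added to filaments. Beta-thymosins are very short peptides that hold monomers in reserve. Profilins promote nucleotide exchange on monomers and hand them to growing filament ends. Cofilins and destrin sever old filaments and bind the monomers released, CAP proteins recycle those monomers, and twinfilins bind monomers and filament ends.

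The genes differ in how many processed pseudogenes they have, which are intronless genomic copies of a messenger RNA. Copies that carry a member's name were counted in GENCODE release 29 on GRCh38, without a check that each is processed. PFN1 has 10 such copies, CFL1 has 8, TMSB4X has 6, DSTN has 4, TMSB10 has 2, and CAP1 and TWF1 have 1 each. PFN2, CFL2 and TWF2 have none. None of the named copies has a value of its own in the data analysed here. Only 6 annotated pseudogenes of any kind have one, so this absence does not show whether the copies are expressed. A search of the coding sequences against annotated pseudogene transcripts, at 85% identity or more over at least 50% of the coding sequence, found 8 processed copies of PFN1, 6 of TMSB4X, 4 of CFL1, 2 each of TMSB10, DSTN, CAP1 and TWF1, and 0 of PFN2, CFL2 and TWF2. Of the 6 copies of TMSB4X, 4 were at least 95% identical to it, while PFN1, DSTN and TWF1 had 1 such copy each and the other members had 0.

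The coding sequences of TMSB4X, of its paralog TMSB10 and of 2 of its processed copies are printed below. They show where coding reads of TMSB4X could be told apart from those of the other 3. Each is given from its first codon without the stop codon, on the transcribed strand, in lower case, with capitals where a base differs from TMSB4X. TMSB4X lies on chromosome X from 12975108 to 12977227, TMSB10 on chromosome 2 from 84905625 to 84906675, TMSB4XP6 on chromosome 20 and TMSB4XP8 on chromosome 4.
TMSB4X: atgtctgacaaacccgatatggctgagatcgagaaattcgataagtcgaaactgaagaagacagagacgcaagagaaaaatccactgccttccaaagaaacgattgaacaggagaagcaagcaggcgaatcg
TMSB10: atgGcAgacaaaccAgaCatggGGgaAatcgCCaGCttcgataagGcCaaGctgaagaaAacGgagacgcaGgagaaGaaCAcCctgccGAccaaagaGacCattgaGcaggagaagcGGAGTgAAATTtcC
TMSB4XP6: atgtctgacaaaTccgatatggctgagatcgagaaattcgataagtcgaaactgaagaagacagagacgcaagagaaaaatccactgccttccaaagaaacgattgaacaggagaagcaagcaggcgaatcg
TMSB4XP8: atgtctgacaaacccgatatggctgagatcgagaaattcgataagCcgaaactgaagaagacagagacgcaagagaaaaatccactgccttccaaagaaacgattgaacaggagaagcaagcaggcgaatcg
Over 132 coding bases TMSB10 differed from TMSB4X at 37 (72.0% identity), and each of the 2 copies differed at 1 (99.2% identity). TMSB10 thus differs from TMSB4X along its whole coding length, and each copy differs from it at a single base.

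The share of short windows with an exact match in an annotated, non-overlapping gene was counted for the reference transcript of each member. Every 50-base window of the TMSB4X coding sequence (100% of 83) and 60.6% of its 33 windows of 100 bases had such a match. Over its whole 628-base transcript the shares were 27.8% and 4.3%. TWF1 came next, with 71.8% of coding windows of 50 bases and 24.0% of all such windows matched. For PFN1 29.4%, for DSTN 19.7%, for CAP1 12.3%, for TMSB10 12% and for CFL1 1.6% of coding windows of 50 bases were matched. PFN2, CFL2 and TWF2 had 0.0% of coding windows matched. The number of named copies and the shared sequence thus gave different orders, and the closest copy was 93.0% identical for CFL1, 99.2% for TMSB4X and 99.4% for TWF1. The sources used here give neither the read length nor the treatment of reads with several matches, so the effect of these copies on the FPKM values was not tested.

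**Figure D1:**
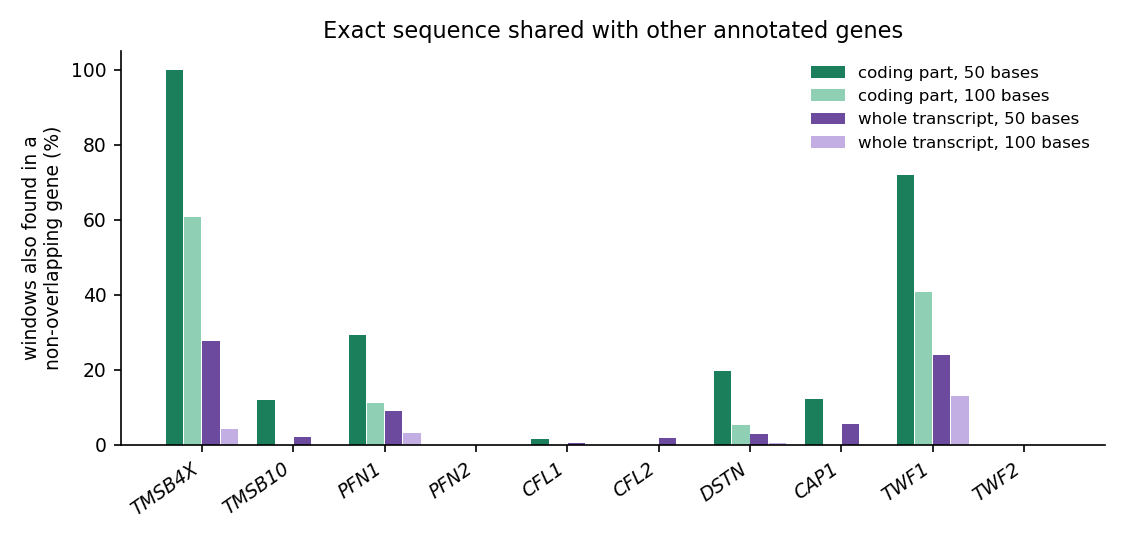
Share of 50-base and 100-base windows of each gene's reference transcript (y axis, percent) that match exactly in an annotated gene that does not overlap it, for the coding part and the whole transcript. TMSB4X reaches 100% of coding windows of 50 bases and TWF1 71.8%, while PFN2 and TWF2 are at 0.0% in all 4 bars.

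TMSB4X, which encodes thymosin beta 4, was far higher in resistant cells. It stood at 14.1 and 12.6 FPKM in Res libraries and at 0.889 and 1.33 FPKM in Ctrl libraries. The lower Res library was thus well above the higher Ctrl library. The mean was 13.4 ± 1.11 FPKM in Res and 1.11 ± 0.311 FPKM in Ctrl (SD, n = 2 each), a ratio of 12.1. In the fit over all genes its log2 fold change on log2(FPKM + 1) was 2.77 ± 0.20 (SE), the 5th highest of 10271 genes tested. It was 1 of the 5 genes past the limma threshold in the higher direction (0.0487% of genes tested, with 0.0584% called in either direction). Since the gene was chosen for its difference in this contrast, the call is no test of it. The call was lost under 7 of 10 alternative settings, among them without Res replicate 1 (limma adjusted p = 0.0586) and without Res replicate 2 (limma adjusted p = 0.133). Its log2 fold change lay between 2.62 and 3.50 over all 10. By FPKM the gene ranked 2352nd and 2478th of 11650 in Res libraries and 10391st and 9507th in Ctrl libraries. In bulk RNA a larger share of cells with the transcript and more transcript per cell cannot be told apart.

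TMSB10, which encodes thymosin beta 10, was the most abundant member by a wide margin. It stood at 1804 and 2444 FPKM in Res libraries and at 1443 and 1693 FPKM in Ctrl libraries. The groups did not overlap, but the gap between them was smaller than the gap within either group. Its log2 fold change of 0.43 ± 0.18 (SE) had a 95% interval of -0.03 to 0.88 (limma adjusted p = 0.328), and was 0.64 without Res replicate 1 and 0.21 without Res replicate 2. It ranked 14th and 12th among all genes in the Res libraries and 14th in both Ctrl libraries.

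Another beta-thymosin gene, TMSB15A, which is not among the 10, stood at 61.8 and 60.1 FPKM in Res libraries and at 51.8 and 57.1 FPKM in Ctrl libraries, with a log2 fold change of 0.16 ± 0.15 (SE, limma adjusted p = 0.618). TMSB15B, its close relative, had no value and was not analysed here, so reads of the pair may not be separated. TMSB4X made up 0.752% and 0.500% of the FPKM of these 3 beta-thymosin genes in Res libraries and 0.0594% and 0.0758% in Ctrl libraries. Even in resistant cells, TMSB4X was thus a minor part of the FPKM of these 3 genes, which was almost entirely that of TMSB10. Of 50-base windows over the whole transcript, 27.8% were matched in other genes for TMSB4X and 2.2% for TMSB10. How reads with several matches were treated is not known, so the share of TMSB4X among the transcripts themselves is uncertain.

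**Figure D2:**
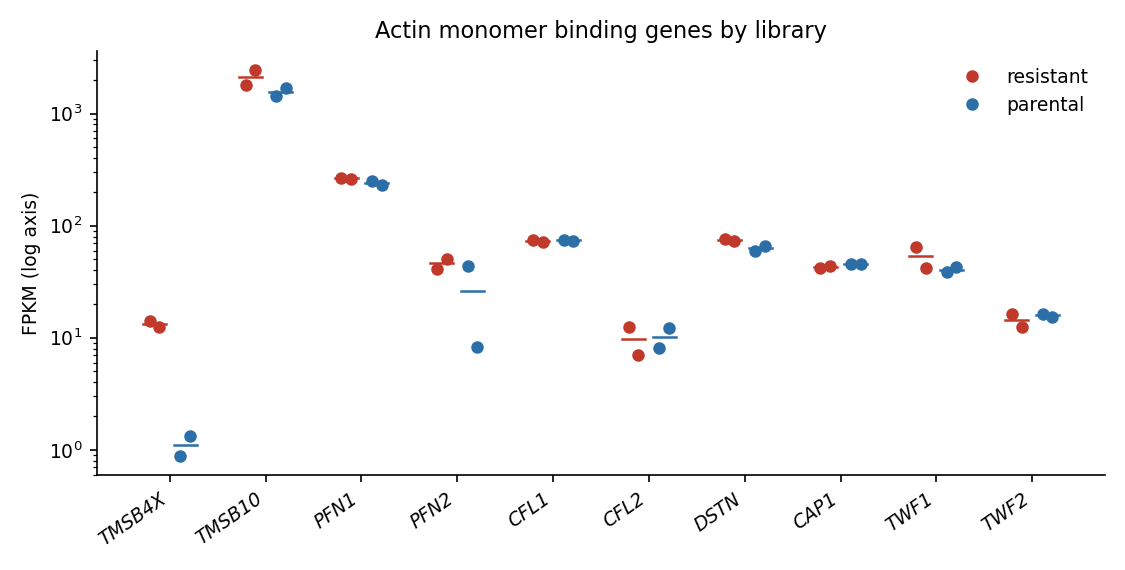
FPKM of the 10 genes (y axis, log scale) in the 2 Res libraries (left, red) and the 2 Ctrl libraries (right, blue), with points for libraries and lines for group means. TMSB4X is separated by group at 14.1 and 12.6 against 0.889 and 1.33 FPKM, and PFN2 is separated by library within Ctrl.

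The profilins differed in steadiness. PFN1, the widely expressed form, stood at 266 and 263 FPKM in Res libraries and at 251 and 232 FPKM in Ctrl libraries. The groups did not overlap, and the log2 fold change of 0.13 ± 0.13 (SE) had a 95% interval of -0.19 to 0.45 (limma adjusted p = 0.634). PFN2, the form known best from neurons, stood at 41.4 and 50.7 FPKM in Res libraries and at 43.9 and 8.21 FPKM in Ctrl libraries. A single Ctrl library was low and the other lay inside the Res range. The Ctrl libraries differed by 2.28 on the log2 scale for PFN2, a gap reached by 0.273% of the genes tested. Its log2 fold change of 1.2 ± 0.72 (SE) had a 95% interval of -0.63 to 3.03 (limma adjusted p = 0.457). Without Ctrl replicate 1 it was 2.35 (limma adjusted p = 0.0212), and without Ctrl replicate 2 it was 0.06 (limma adjusted p = 0.986), so the PFN2 value rests on a single Ctrl library. PFN2 made up 13.5% and 16.2% of profilin FPKM in Res libraries and 14.9% and 3.42% in Ctrl libraries.

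Among the depolymerising proteins, CFL1, the non-muscle cofilin, was almost level. It stood at 74.6 and 71.6 FPKM in Res libraries and at 74.9 and 72.9 FPKM in Ctrl libraries. The groups overlapped, and the log2 fold change of -0.02 ± 0.14 (SE) had a 95% interval of -0.37 to 0.34 (limma adjusted p = 0.965). DSTN, which encodes destrin, also called actin-depolymerising factor, stood at 75.3 and 73.0 FPKM in Res libraries and at 59.8 and 65.3 FPKM in Ctrl libraries. Here the groups did not overlap, with a log2 fold change of 0.24 ± 0.14 (SE) and a 95% interval of -0.12 to 0.61 (limma adjusted p = 0.453). CFL2, the cofilin known best from muscle, stood at 12.4 and 7.07 FPKM in Res libraries and at 8.12 and 12.2 FPKM in Ctrl libraries. Each group held a high and a low library, and the log2 fold change of -0.08 ± 0.33 (SE) had a 95% interval of -0.90 to 0.75 (limma adjusted p = 0.926). DSTN made up 46.4% and 48.1% of the FPKM of the 3 genes in Res libraries and 41.9% and 43.4% in Ctrl libraries.

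CAP1, which recycles monomers together with cofilin, was the only member lower in both Res libraries than in both Ctrl libraries. It stood at 41.7 and 43.6 FPKM in Res libraries and at 45.5 and 45.2 FPKM in Ctrl libraries. The log2 fold change was -0.09 ± 0.15 (SE), with a 95% interval of -0.46 to 0.28 (limma adjusted p = 0.794), and its sign turned with median-of-ratios scaling (0.01). The twinfilin TWF1 stood at 65.1 and 42.0 FPKM in Res libraries and at 38.6 and 42.6 FPKM in Ctrl libraries. A single Res library was high and the other lay inside the Ctrl range. Its log2 fold change of 0.36 ± 0.24 (SE, limma adjusted p = 0.500) was 0.67 without Res replicate 2 and 0.05 without Res replicate 1. TWF2 stood at 16.3 and 12.4 FPKM in Res libraries and at 16.4 and 15.2 FPKM in Ctrl libraries. These groups overlapped, with a log2 fold change of -0.14 ± 0.20 (SE) and a 95% interval of -0.64 to 0.36 (limma adjusted p = 0.757).

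Over the set, 1 member was past the limma threshold in the higher direction, namely TMSB4X, and 0 were in the lower direction, where 0.00974% of all genes tested were called lower. Nothing is read from this count, since the set was built around TMSB4X, chosen for its difference in this contrast. The 9 other members had limma adjusted p-values of 0.328 to 0.965, none of them had an unadjusted limma p under 0.05, and their median log2 fold change was 0.13, beside -0.08 for all genes tested. Of the 9 members other than TMSB4X, 3 were higher and 1 lower in both Res libraries than in both Ctrl libraries. By that rule 19.1% of all genes tested were higher and 31.8% lower. The intervals of the 9 others all included 0, and those of PFN2 and CFL2 were the widest.

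**Figure D3:**
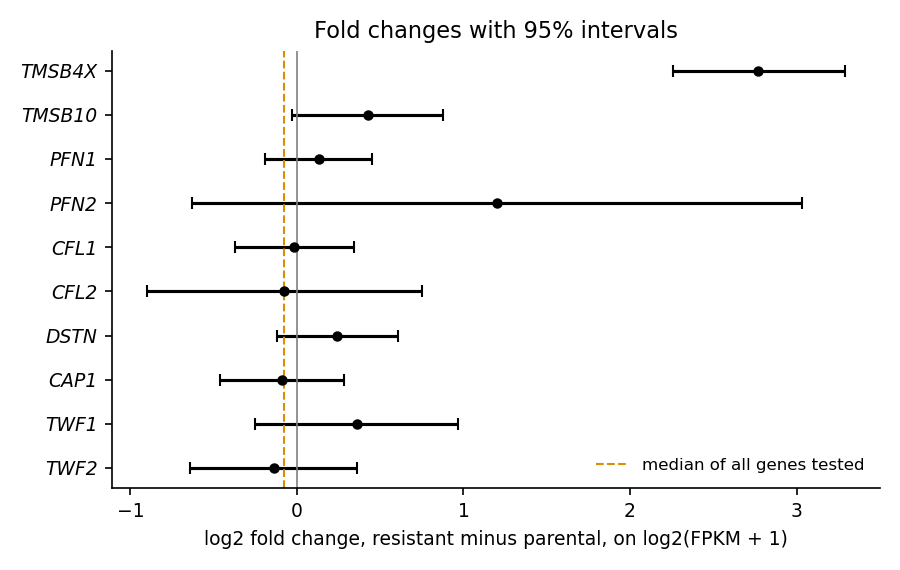
Log2 fold change of the 10 genes, Res minus Ctrl, on log2(FPKM + 1) (x axis), with bars for 95% limma intervals and a dashed line at the median of all 10271 genes tested. TMSB4X lies at 2.77, and the intervals of the 9 other genes include 0.

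The FPKM scale is per length, but the genes differ in the sequence they share with copies. The order of levels given here is therefore uncertain for genes with close copies, TMSB4X and TWF1 among them. On this scale TMSB10 came first in every library and PFN1 second. CFL1 and DSTN followed, and in Res libraries their ranges overlapped (71.6 to 74.6 FPKM and 73.0 to 75.3 FPKM), while in Ctrl libraries CFL1 was the higher. TWF1, PFN2 and CAP1 came next, with overlapping ranges in Res libraries, except that PFN2 in Ctrl replicate 2 (8.21 FPKM) lay below TWF2 (15.2 FPKM) and CFL2 (12.2 FPKM). TWF2, TMSB4X and CFL2 were lowest in Res libraries, where the range of TWF2 overlapped those of TMSB4X and CFL2. The lower TMSB4X value there (12.6 FPKM) lay just above the higher CFL2 value (12.4 FPKM). In Ctrl libraries TMSB4X was lowest by a wide margin. Summed FPKM of the 10 genes was 2411 and 3019 in Res libraries and 1983 and 2188 in Ctrl libraries. Without TMSB10 the sum was 607 and 576 in Res libraries and 539 and 495 in Ctrl libraries. The beta-thymosins TMSB4X and TMSB10 made up 75.4% and 81.4% of the sum of the 10 in Res libraries and 72.8% and 77.4% in Ctrl libraries, the profilins 12.8% and 10.4% in Res and 14.9% and 11% in Ctrl, and the twinfilins 3.38% and 1.80% in Res and 2.77% and 2.64% in Ctrl.

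Actin itself, the partner of all 10, gave a scale for these sums. The non-muscle actin ACTB stood at 519 and 516 FPKM in Res libraries and at 520 and 484 FPKM in Ctrl libraries. The other non-muscle actin, ACTG1, stood at 163 and 93.4 FPKM in Res libraries and at 172 and 179 FPKM in Ctrl libraries. Both genes belong to a family with many processed copies, so their levels are uncertain. The 10 members summed to 3.54 and 4.96 times the FPKM of ACTB and ACTG1 in Res libraries and to 2.86 and 3.30 times in Ctrl libraries. ACTA2, the smooth muscle form, stood at 4.78 and 3.28 FPKM in Res libraries and at 0.741 and 0.891 FPKM in Ctrl libraries, with a log2 fold change of 1.45 ± 0.21 (SE, limma adjusted p = 0.101).

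The neighbours of TMSB4X on chromosome X had smaller differences between groups. The 3 nearest genes with a value to each side were HCCS, MSL3 and PRPS2 on the lower-coordinate side and RAB9A, TRAPPC2 and OFD1 on the other. Their log2 fold changes were 0.03 for HCCS, 0.50 for MSL3, -1.38 for PRPS2, 0.02 for RAB9A, -0.09 for TRAPPC2 and 0.34 for OFD1, and none was past the limma threshold. PRPS2, the nearest below, which encodes a phosphoribosyl pyrophosphate synthetase, stood at 22.5 and 3.11 FPKM in Res libraries and at 24.2 and 25.1 FPKM in Ctrl libraries, so that value rests on 1 Res library. Over the 353 genes of chromosome X that were tested the median log2 fold change was -0.08.

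By Euclidean distance over the 4 libraries, on log2(FPKM + 1) centred per gene, the 5 genes most like TMSB4X in pattern were DAG1 (0.32), SFRP1 (0.36), CCN1 (0.44), SPP1 (0.59) and CD36 (0.76). DAG1, which encodes dystroglycan, stood at 8.47 and 5.58 FPKM in Res libraries and at 0.150 and 0.191 FPKM in Ctrl libraries. SFRP1, which encodes a secreted Wnt antagonist, stood at 134 and 132 FPKM in Res libraries and at 22.7 and 21.9 FPKM in Ctrl libraries. SPP1, which encodes osteopontin, stood at 54.6 and 29.4 FPKM in Res libraries and at 3.14 and 5.01 FPKM in Ctrl libraries. CD36, a fatty acid and lipoprotein receptor, stood at 75.1 and 52.5 FPKM in Res libraries and at 13.6 and 14.9 FPKM in Ctrl libraries. With 4 libraries in 2 groups, likeness in this measure is mostly likeness in the difference between groups.

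Of 106 other genes of actin assembly and actin-linked transcription in 7 lists, 91 had a value and 80 were tested. None was past the limma threshold in either direction. At an unadjusted limma p under 0.05, 10 were higher and 5 lower in Res, beside 6.06% and 10.2% of all genes tested. The median log2 fold change of the lists was between -0.24 for the capping and severing list and 0.15 for formins, beside -0.08 for all genes. These medians moved with the settings. The capping and severing median lay between -0.33 (without Ctrl replicate 1) and -0.04 (without Res replicate 2). With a minimum mean of 5 FPKM the formin median was 0.37, and that of other monomer-binding proteins was the lowest, at -0.42.

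Among other monomer-binding proteins, 9 of 14 were tested, and 0 were higher and 3 lower by that unadjusted p (median log2 fold change -0.16). CAP2, the relative of CAP1, stood at 9.26 and 13.8 FPKM in Res libraries and at 21.0 and 20.2 FPKM in Ctrl libraries. MTSS2, a membrane-bending protein with an actin-binding motif, stood at 15.9 and 13.6 FPKM in Res libraries and at 29.3 and 21.2 FPKM in Ctrl libraries. For both the groups did not overlap, with log2 fold changes of -0.81 ± 0.23 and -0.72 ± 0.22 (SE, limma adjusted p = 0.217 and 0.239). The other was WIPF3 (-0.55 ± 0.18 SE, limma adjusted p = 0.265), which encodes a partner of the nucleation promoter N-WASP. WIPF2, of the same family, was at 0.46 ± 0.27 (SE).

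Of 22 genes of the Arp2/3 complex, which starts branched filaments, and its activators, 19 were tested, and 1 was higher and 0 lower by that unadjusted p. This was WASL, which encodes N-WASP, at 27.8 and 29 FPKM in Res libraries and 20.4 and 21.2 FPKM in Ctrl libraries. The Arp2/3 subunit ARPC5 stood at 7.62 and 22.7 FPKM in Res libraries and at 6.44 and 6.66 FPKM in Ctrl libraries, a difference carried mostly by 1 library. ABI1, a subunit of the WAVE complex, stood at 21.9 and 6.54 FPKM in Res libraries and at 29.3 and 18.1 FPKM in Ctrl libraries. Those groups overlapped. Formins elongate unbranched filaments from profilin-bound actin. Of 14 formins 10 were tested, of which 2 were higher and 0 lower by that unadjusted p: FMNL2 (0.56 ± 0.19 SE) and FMN2 (0.49 ± 0.17 SE), with limma adjusted p-values of 0.262 and 0.282.

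Of 13 genes in the list for proteins that cap or sever filaments and for their relatives, 8 were tested. By that unadjusted p, 2 were higher and 1 lower. SVIL, which encodes supervillin, stood at 3.95 and 4.68 FPKM in Res libraries and at 1.98 and 1.93 FPKM in Ctrl libraries (log2 fold change 0.85 ± 0.18 SE, limma adjusted p = 0.160). SCIN, which encodes a severing protein of the gelsolin family, was the other, at 0.59 ± 0.23 (SE). GSN, gelsolin itself, stood at 4.33 and 3.59 FPKM in Res libraries and at 7.55 and 5.89 FPKM in Ctrl libraries. The abundant capping protein subunit CAPZA1 stood at 71.5 and 96.0 FPKM in Res libraries and at 68.2 and 138 FPKM in Ctrl libraries, with groups that overlapped.

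Cofilin is switched off by LIM and TESK kinases and on again by slingshot phosphatases and chronophin. Of 17 genes for such regulators and cofilin partners 15 were tested, of which 1 was higher and 1 lower by that unadjusted p. ROCK2, a kinase upstream of the LIM kinases, stood at 15.1 and 18.1 FPKM in Res libraries and at 9.01 and 10.2 FPKM in Ctrl libraries (log2 fold change 0.73 ± 0.19 SE, limma adjusted p = 0.196). CORO1C, a coronin, stood at 17.3 and 13.6 FPKM in Res libraries and at 29.7 and 27.9 FPKM in Ctrl libraries (log2 fold change -0.87 ± 0.19 SE, limma adjusted p = 0.164). PDXP, which encodes chronophin, stood at 14.4 and 14.3 FPKM in Res libraries and at 2.04 and 12.4 FPKM in Ctrl libraries. That difference was carried mostly by 1 Ctrl library, and without the other the log2 fold change was 2.34. The kinase LIMK1 (0.07 ± 0.21 SE) and the phosphatase SSH2 (-0.01 ± 0.20 SE) had values near 0.

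Free actin monomers hold the coactivators MRTFA and MRTFB away from the transcription factor SRF, so SRF targets are a known readout of the monomer pool. Of 20 genes on that list 16 were tested, of which 3 were higher and 0 lower by that unadjusted p (median log2 fold change 0.10). These were CCN1 (2.52 ± 0.23 SE), CCN2 (1.70 ± 0.19 SE) and MRTFA (0.43 ± 0.17 SE), with limma adjusted p-values of 0.0617, 0.0781 and 0.305. CCN1, a secreted matrix protein that is also a YAP target, stood at 44.6 and 30.5 FPKM in Res libraries and at 5.68 and 5.52 FPKM in Ctrl libraries. Its log2 fold change was 2.54 without Ctrl replicate 1 and 2.50 without Ctrl replicate 2. MRTFA stood at 2.62 and 2.62 FPKM in Res libraries and at 1.81 and 1.56 FPKM in Ctrl libraries. SRF was at 0.12 ± 0.19, the focal adhesion protein VCL at 0.07 ± 0.18 and the crosslinker FLNA at -0.28 ± 0.21 (log2 fold change ± SE). The contractile genes TAGLN, MYL9 and CNN1 were below the minimum mean and went in different directions. TAGLN stood at 1.11 and 0.970 FPKM in Res libraries and at 0.144 and 0.0582 FPKM in Ctrl libraries, and MYL9 stood at 0.663 and 1.03 FPKM in Res libraries and at 0.0479 FPKM in 1 Ctrl library and was listed at 0 in the other. CNN1 stood at 0.114 and 0.138 FPKM in Res libraries and at 0.426 and 0.806 FPKM in Ctrl libraries.

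**Figure D4:**
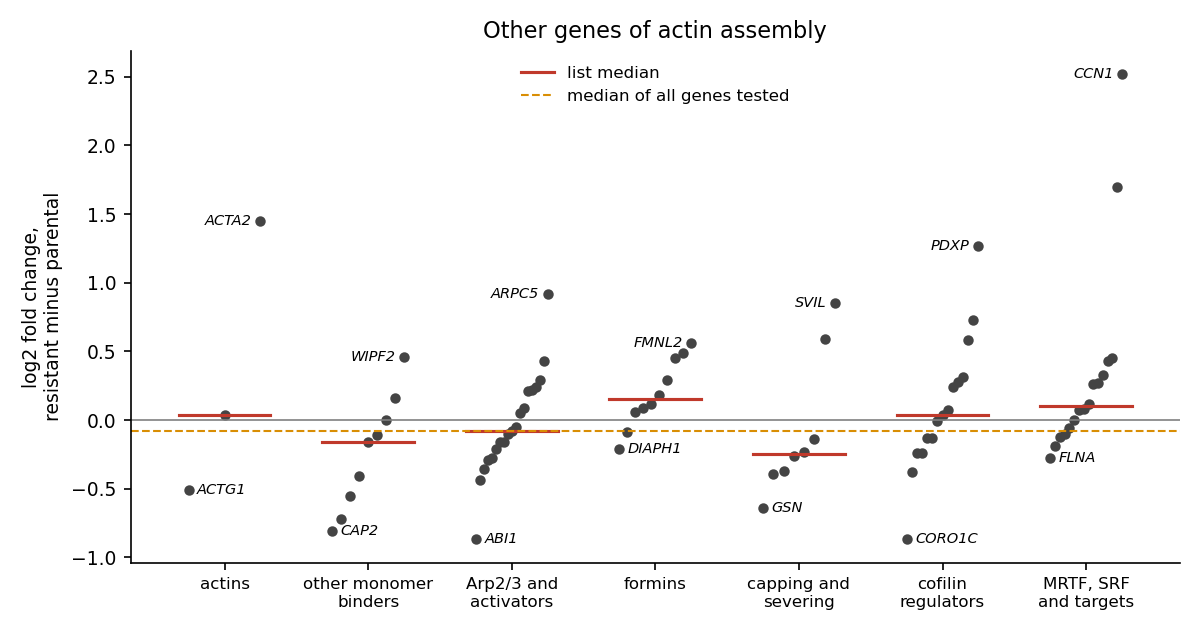
Log2 fold change, Res minus Ctrl (y axis), of the 80 tested genes of 7 actin lists, with points for genes, red lines for list medians and a dashed line for the median of all genes tested. CCN1 at 2.52 and CCN2 at 1.70 lie highest, and CORO1C and ABI1 at -0.87 lowest.

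TMSB4X is known to be abundant in leukocytes and other non-pigment cells, so markers of these were read beside it. Of 9 leukocyte markers 3 had a value (CD68, HLA-DRA and LCP1), with a summed 13.6 FPKM in both Res libraries and 32.6 and 27.7 FPKM in Ctrl libraries. CD68 and LCP1 carried that sum and were lower in both Res libraries than in both Ctrl libraries, while HLA-DRA stood at 0.403 and 2.89 FPKM in Res libraries, against 0.234 FPKM in 1 Ctrl library and a listing at 0 in the other. Of 7 fibroblast markers 3 had a value (COL1A1, COL1A2 and LUM), with a sum of 9.59 and 7.34 FPKM in Res libraries and 5.20 and 6.01 FPKM in Ctrl libraries. Of 7 epithelial markers 3 had a value (KRT8, KRT18 and KRT19), with a sum of 9.39 and 17.7 FPKM in Res libraries and 3.12 and 3.91 FPKM in Ctrl libraries, and 0 of 5 endothelial markers did. The defining markers PTPRC, DCN, EPCAM and PECAM1 had no value and were not analysed here. The epithelial sum was higher in both Res libraries than in both Ctrl libraries, as was the fibroblast sum. LUM was the largest part of the fibroblast sum, and its groups overlapped (7.69 and 4.92 FPKM in Res, 4.45 and 5.16 FPKM in Ctrl). COL1A1 and COL1A2 were low but higher in both Res libraries. KRT8, KRT18 and KRT19 were each higher in both Res libraries, with KRT19 uneven there at 1.10 and 6.29 FPKM. The part of any of these cell types in the TMSB4X difference was not tested.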

How the data were processed

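The values were deposited by the authors as FPKM per gene and library, per the file headers, and the genome build was hg38, per the submitters' processing notes. The sources used here name no aligner, counting program or annotation. Of the identifiers, 11551 carry a suffix of the kind GENCODE uses for annotation mapped to the older build, which does not match the hg38 label, so the transcripts behind the values may differ from those searched for copies. Per the labels' protocols the libraries were stranded (dUTP method), after poly(A) selection or ribosomal RNA depletion. In every gene the higher of the group means was at least 0.5009 FPKM. Of 11650 identifiers, 11575 were in a table of current symbols and 11596 in GENCODE release 29 on GRCh38, the source of positions and transcripts.

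FPKM values are not counts, so log2(FPKM + 1) was fitted over the 10271 genes whose mean reached 1 FPKM, in limma 3.58.1 (R 4.3.3). The tests were two-sided with a variance trend, and p-values were adjusted by Benjamini-Hochberg over all these genes at 0.05. Fold changes on this scale understate those of low genes. With 2 libraries a group, the smallest p of an exact permutation test is 0.333. The code of the fit was checked on simulated data with normally distributed noise. That noise has no library that stands apart, so the check gives no measure of power in these data. Copies were searched with BLAST 2.17.0, from reference transcripts chosen by APPRIS rank, a RefSeq match and length. Members, lists and tests were chosen with earlier results of these data known. Of each actin list the rule named up to 2 genes with the highest and up to 2 with the lowest log2 fold change and up to 2 with the highest FPKM. Genes named for an unadjusted p or as list centrepieces (among them WIPF3, LIMK1, SSH2, MRTFA, SRF, VCL, TAGLN and MYL9) and the neighbours of TMSB4X were chosen after their values could be seen. Proteins are not printed.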

Additional observations from a re-analysis of the deposited data

How the results depend on the processing

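Alternatives were a pseudocount of 0.1, no minimum, a minimum mean of 5 FPKM, median-of-ratios scaling, quantile normalization, the replicate number as a block, and each library left out, where the lone library of a group is assumed to vary like the others. Of 100 member fold changes under these, 91 kept their sign. The 9 that turned were all small: with median-of-ratios scaling CFL1 was 0.09, CFL2 0.02 and CAP1 0.01, with quantile normalization CFL2 was 0.04, and with a library left out CFL1 ranged over -0.04 to 0.01 (0.0032 without Ctrl replicate 1), CFL2 over -0.44 to 0.29 (0.19 without Ctrl replicate 2) and TWF2 over -0.32 to 0.04. Median-of-ratios scaling moved the median of all genes from -0.079 to 0.009, as such scaling does by design. Why the unscaled median lay below 0 was not tested. TMSB4X kept its sign under all 10, with limma adjusted p-values of 0.0139 to 0.133. Genes called higher numbered 3 under quantile normalization, under median-of-ratios scaling and with a pseudocount of 0.1, against 5, and 0 to 19 with a library left out; genes called lower numbered 0 to 13, against 1. In the actin lists 0 to 2 genes were called higher with a library left out (CCN1, and PDXP without Ctrl replicate 2). With the replicate block 4 genes were called higher and 1 lower, and TMSB4X stood at 2.77 (limma adjusted p = 0.0758). Deviations of same-numbered libraries correlated at -0.0709. With 2 pairs this gives no sign of pairing and cannot exclude it. Without counts, depth gives no interval for single values.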
